A study of Brassica napus with 48 samples.

Results

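Middle flower buds (1 to 3 mm) of fertile J10 plants of oilseed rape (Brassica napus) were compared with small buds (under 1 mm) of fertile plants of the same line. The comparison rests on the 8 arrays whose titles name middle or small J10B buds, 4 of each, out of 48 arrays in all. Per the design text, cytology placed small buds at the tetrad stage of pollen development and middle buds at the uninucleate stage. Each sample was a whole bud with its stamens and pistils, and its RNA was hybridised to the Arabidopsis ATH1 array, so each gene name below stands for the probe set designed for that Arabidopsis gene.

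J10 is a line in which dominant genic male sterility segregates. Its fertile plants had the genotype MsMsRfrf and its sterile plants MsMsrfrf, so both carried Ms on both chromosomes and the fertile ones carried Rf as well. The second line of the study, J03, had fertile plants of genotype msmsrfrf and sterile plants of genotype Msmsrfrf. All plants came from 1 field. Buds were taken from 2 to 4 inflorescences on each of 2 to 4 plants of a line, and which plants made up a replicate is not given in the labels. Large buds (over 3 mm, trinucleate stage) of fertile J10 and the small and middle buds of sterile J10 and fertile J03 are used below only to place the changes.

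In anthers at the tetrad stage, the 4 products of a meiosis lie inside a wall of callose, a beta-1,3-glucan. The tapetum, the cell layer that lines the locule, secretes glucanases that dissolve this wall and release the microspores. It then makes most of the outer pollen wall: polyketides and hydroxylated fatty acids for sporopollenin, phenolic polyamine conjugates for the surface, and later lipids and proteins of the pollen coat. Microspores of the uninucleate stage lay down their wall while the tapetum is at its most active.

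A level is the deposited signal intensity on a linear scale, given as the mean ± SD over 2 biological replicates, each the mean of 2 hybridisations. Where array values are listed, the 2 hybridisations of replicate 1 come first and those of replicate 2 follow. A change is the difference between middle and small buds on the log2(signal + 113.0) scale with its standard error (SE), where 113.0 is a constant that damps the noise of dim probe sets. A positive change means a higher signal in middle buds. A probe set was called at an adjusted p under 0.05. Signals are compared between samples for 1 probe set and never between probe sets, since rapeseed RNA matches each Arabidopsis probe to its own degree, and 1 probe set can bind several rapeseed copies of a gene.

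The 4 small-bud arrays correlated with each other at r = 0.785 to 0.833 across probe sets, and the 4 middle-bud arrays at 0.739 to 0.856. The first hybridisation of middle replicate 2 was the least alike of its group (r = 0.739 to 0.774). Small and middle arrays of replicate 1 were about as alike (0.774 to 0.807) as small arrays of different replicates (0.785 to 0.801). Small and middle arrays of replicate 2 correlated at 0.711 to 0.764. Across numbers, r was 0.673 to 0.739 for small replicate 1 with middle replicate 2. It was 0.741 to 0.752 for small replicate 2 with middle replicate 1. Median signals of the 8 arrays ran from 344 to 375. The log2 ratio of 3' to 5' control signal, a stand-in for RNA integrity, was 1.22 ± 0.34 in small and 1.17 ± 0.42 in middle buds (SD, n = 2). By replicate it was 0.98 and 1.46 in small buds and 0.87 and 1.46 in middle buds, for replicates 1 and 2 in turn. The ratio was thus higher in replicate 2 of both classes.

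Called rises were more numerous than called falls and had larger changes. Of 13999 probe sets tested, 217 (1.55%) were called, 154 of them higher in middle buds (1.1%) and 63 lower (0.45%). Rises had a median change of 1.72 and reached 7.28, with 55 of at least 2 and 26 of at least 3. Falls had a median of -1.30 and reached -2.69, with 5 of at least 2 in size and none of 3. All 4 arrays of 1 class lay above all 4 of the other for 144 of the rises and 61 of the falls, against 7.16% of all probe sets tested. Unadjusted p-values under 0.05 were found for 1471 probe sets, 712 higher and 759 lower in middle buds, where chance alone gives 700. The total fell to 140 without middle replicate 2, with 24 falls, and the number of falls was 30 without small replicate 1 and 38 without small replicate 2. Leaving out middle replicate 1 gave more falls than the full fit. Without the least alike array 265 probe sets were called.

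The probe sets that rose had a median signal of 507 in small and 2321 in middle buds, and 48 of the 154 lay below the array median on all 4 small-bud arrays, as did 748 of all 13999 tested. Those that fell went the other way, from a median of 1874 to 661, and 10 of the 63 lay below the array median on all 4 middle-bud arrays, against 714 of all tested. Over all tested probe sets the medians were 573 and 580.2, and the median change was -0.02. The annotation gave 1 gene for 94 of the calls, 71 rises and 23 falls. It gave several for 5 and none for 118, so the named genes below cover less than the whole response. The largest fall, of -2.69, was at a probe set with no gene.

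Of 10 tested members of a list of tapetum and pollen wall products, 7 rose in middle buds and none fell, against 1.1% of all probe sets called higher. Their median change was 2.50, against -0.02 over all probe sets tested. The list was drawn up with earlier results of these samples known, so it is no independent evidence of its direction. Without the 3 members known from those results, 4 of 7 tested rose and none fell, with a median change of 1.72. AT2G03740, described further below, is on this list and is counted again in a second group there. In whole buds a larger share of tapetal cells and more RNA per tapetal cell cannot be told apart.

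A9, a tapetum-specific gene of Arabidopsis whose product resembles lipid transfer proteins, had signals of 945, 723, 582 and 657 on the small-bud arrays and of 6088, 6580, 7078 and 7004 on the middle-bud arrays. Every middle-bud array was far above every small-bud array, and arrays of a class lay close together. The change was 3.03 (SE 0.26, adjusted p = 4.6e-08). In large buds the A9 signal was lower again, at 1617 ± 783 (SD, n = 2), a change from middle buds of -2.06 (SE 0.26, adjusted p = 4.4e-05), where 1.13% of probe sets were called between large and middle buds.

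SHT is the tapetal spermidine hydroxycinnamoyl transferase, which makes the phenolic polyamine conjugates of the pollen surface. Its signal was 271, 219.9, 373 and 234 in small buds against 8994, 7506, 5749 and 7070 in middle buds. The classes were far apart, and SHT rose by 4.26 (SE 0.36, adjusted p = 4.5e-08), a 26.7-fold ratio of mean signals. AT4G29250, an acyltransferase of the same BAHD family, had 954, 703, 217.2 and 419 in small and 5301, 5796, 4812 and 5061 in middle buds. On the log2 scale its small-bud replicates differed by more than its middle-bud replicates, but the classes did not overlap (3.09, SE 0.36, adjusted p = 6.3e-06). Both stayed high in large buds, where SHT had 9173 ± 548 and AT4G29250 had 3524 ± 472 (SD, n = 2).

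AT4G00040 belongs to the chalcone and stilbene synthase family, which also holds the polyketide synthases of sporopollenin. It had 142.9, 580.0, 118.3 and 121.0 in small buds and 5442, 3532, 3434 and 4313 in middle buds. The second hybridisation of small replicate 1 stood above the other small-bud arrays yet far below any middle-bud array, and the change was 3.75 (SE 0.39, adjusted p = 8.3e-07). UPEX1, a galactosyltransferase needed for the pollen exine in Arabidopsis, rose by 1.72 (SE 0.24, adjusted p = 0.00012), from a mean signal of 896 to 3236. ATA27, an anther-specific beta-glucosidase, had 182.5, 20.7, 29.7 and 44.5 in small and 331, 612, 862 and 545 in middle buds (1.97, SE 0.44, adjusted p = 0.015). The ATA27 call was lost without small replicate 2 (adjusted p = 0.17) and without middle replicate 2 (adjusted p = 0.197).

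The 3 tested members of the list that did not pass were a sugar transporter and 2 peroxidases. SWEET8, which feeds microspores during early wall formation in Arabidopsis, had a change of 0.61 (SE 0.35, adjusted p = 0.576). AT4G16270 and AT1G44970 are the tapetal cell wall peroxidases PRX40 and PRX9 of Arabidopsis. PRX40 had a change of -0.77 (SE 0.24, adjusted p = 0.133), and that of PRX9 was -0.43 (SE 0.22, adjusted p = 0.53). Their mean signals went from 6769 in small to 3977 in middle and 988 in large buds for PRX40, and from 2280.1 to 1641 and 845 for PRX9.

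Of 5 tested tapetum regulators, 1 rose and none fell (1.1% of all probe sets were called higher), with a median change of -0.04. AMS, the bHLH factor that switches on pollen wall genes, had 1011, 1063, 618 and 381 in small and 2279.9, 1008, 1709 and 2129 in middle buds. Its classes overlapped on 1 middle-bud array, and the change was 1.13 (SE 0.27, adjusted p = 0.024). This call was lost without small replicate 2 (0.66, adjusted p = 0.44) and without middle replicate 2 (0.98, adjusted p = 0.246). The related factor bHLH091 had 401 ± 78.7 and 830.1 ± 119 (SD, n = 2; 0.79, SE 0.29, adjusted p = 0.246). EMS1, the receptor kinase that specifies the tapetum, had 764 ± 48.1 and 745 ± 117 (SD, n = 2; -0.04, SE 0.29, adjusted p = 0.99). The glutaredoxins ROXY1 and ROXY2, which act early in anther lobes, had changes of -0.05 and -0.22.

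**Figure D1:**
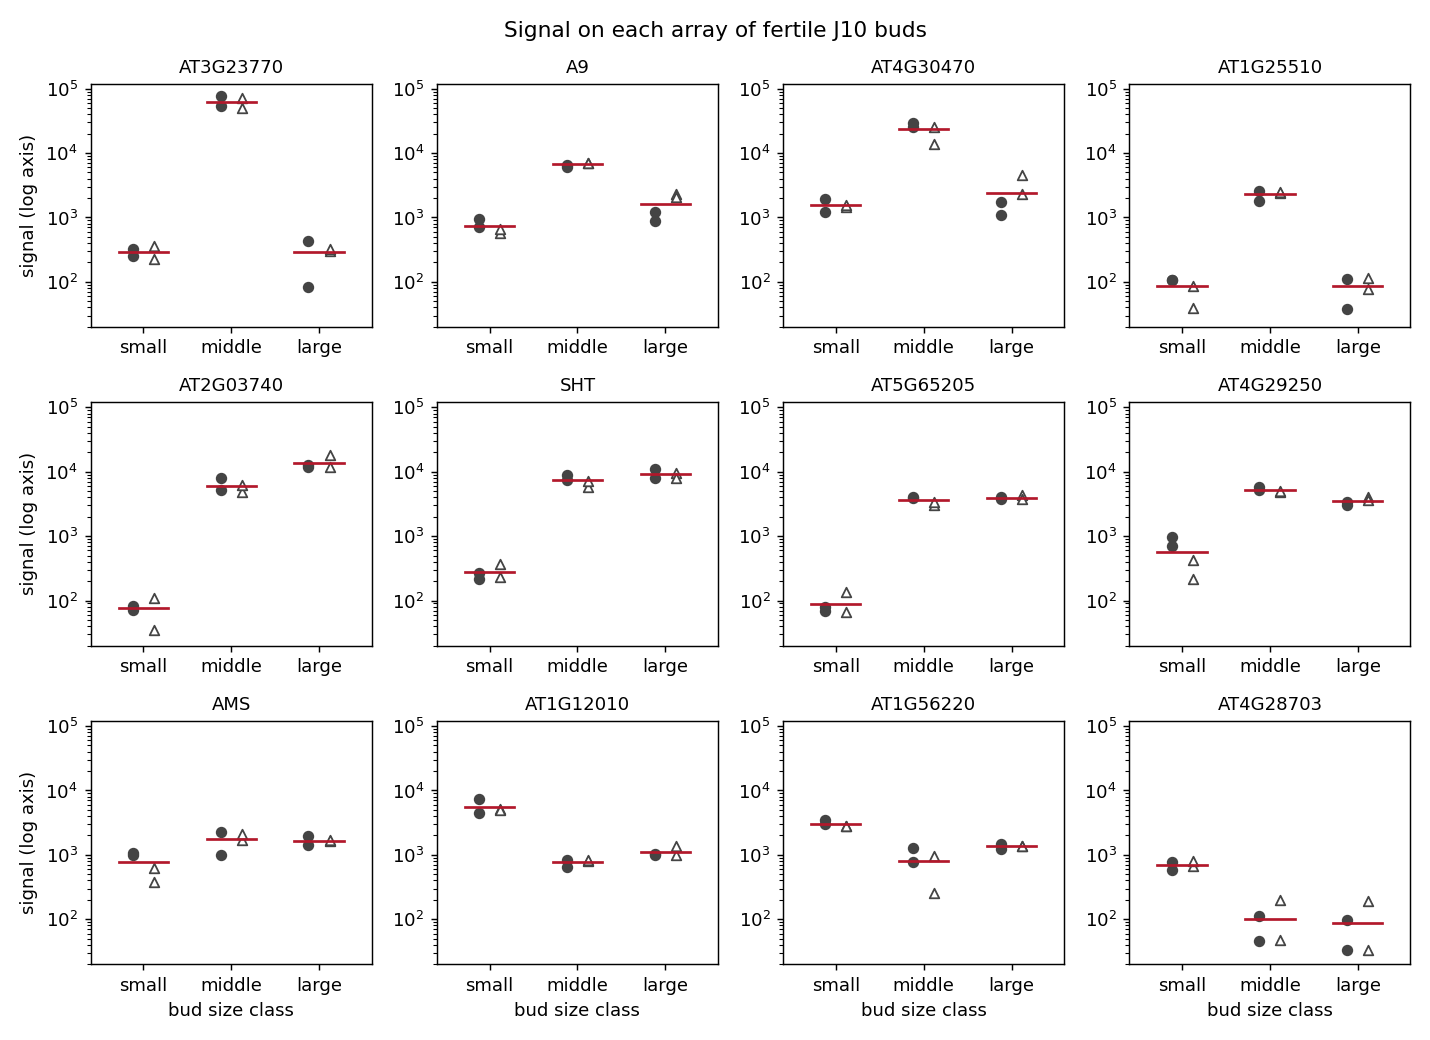
Signal on each array (log axis) of 12 genes in small, middle and large buds of fertile J10. Filled circles are the hybridisations of replicate 1, open triangles those of replicate 2, and red bars the mean of the 4 arrays. AT3G23770 stands near 290 in small and large buds and at 63095 in middle buds, whereas AT2G03740 and SHT stay high in large buds.

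The largest rise of all was that of AT3G23770, a member of glycoside hydrolase family 17, the beta-1,3-glucanases that cut callose. Its signals were 253, 324, 227.2 and 355 on the small-bud arrays and 77673, 52978, 49581 and 72147 on the middle-bud arrays. Nothing lay between the classes, and the ratio of mean signals was 218 (log2 change 7.28, SE 0.78, adjusted p = 1.8e-06). In large buds it was at 436, 83.9, 302 and 328 again. The change from middle to large buds was -7.37 (SE 0.78, adjusted p = 3.4e-06), so the signal was high in middle buds and near its small-bud level in large buds.

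Reductases of the cinnamoyl-CoA and dihydroflavonol reductase type, a family that acts on phenylpropanoid, flavonoid and sporopollenin precursors, were grouped after 2 of them were seen among the largest rises. Of 12 tested, 5 rose and none fell, against 1.1% of all probe sets called higher, and the median change was 0.49. Chosen in this way, the group is no independent evidence of its direction. AT4G30470 had 1236, 1947, 1449 and 1553 in small and 29001, 25197, 14081 and 25556 in middle buds (3.80, SE 0.35, adjusted p = 1.2e-07). The lowest middle-bud array, the first hybridisation of replicate 2, was still above all small-bud arrays. AT1G76470 had 646, 555, 284 and 577 against 11433, 8648, 8719 and 10634 (4.02, SE 0.69, adjusted p = 0.00093), again without overlap. Both were lower in large than in middle buds, by changes of -3.34 (adjusted p = 3e-06) for AT4G30470 and -3.41 (adjusted p = 0.008) for AT1G76470.

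The other reductases that rose were AT1G51410 (2.11, SE 0.48, adjusted p = 0.017), AT2G23910 (1.72, SE 0.35, adjusted p = 0.0067) and AT5G14700 (0.95, SE 0.21, adjusted p = 0.013). AT1G51410 lost its call without small replicate 1 (adjusted p = 0.123), without small replicate 2 (adjusted p = 0.088) and without middle replicate 2 (adjusted p = 0.269). The classical enzymes of the family did not pass: DFR of anthocyanin synthesis changed by -0.30 (SE 0.48) and CCR2 by 0.68 (SE 0.44), with adjusted p of 0.92 and 0.652. Methyltransferases of the caffeoyl-CoA type methylate lignin and phenolic amide precursors and were also grouped after their values were seen. They gave 2 rises among 3 tested, against 1.1% of all probe sets called higher. CCOAMT rose by 1.27 (SE 0.21, adjusted p = 0.00060), from 537 ± 34.7 to 1452 ± 52.5 (SD, n = 2). AT1G24735 rose by 1.52 (SE 0.30, adjusted p = 0.0050), a call lost without small replicate 2 (adjusted p = 0.144) and without middle replicate 1 (adjusted p = 0.069).

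AT5G65205, a short-chain dehydrogenase, was another of the largest rises. It had 68, 78.2, 137.4 and 66.2 in small buds against 4024, 3888, 3099 and 3394 in middle buds, with both classes tight and far apart (4.22, SE 0.35, adjusted p = 4.5e-08). Its large-bud level of 3975 ± 84.9 (SD, n = 2) differed from the middle-bud level by 0.14 (SE 0.35, adjusted p = 0.96). AT1G12570, of the glucose-methanol-choline oxidoreductase family and named after its values were seen, went the other way after middle buds. It had 777 ± 5.2 in small, 6986 ± 390 in middle and 1082 ± 66.8 in large buds (SD, n = 2), a rise of 2.97 (SE 0.25, adjusted p = 4.5e-08) and then a change of -2.55 (adjusted p = 1.5e-06).

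Proteins of the late embryogenesis abundant (LEA) and desiccation type, known for protecting dry seeds and pollen, held the second largest rise. AT2G03740, an LEA family gene, had 82.8, 72.5, 111.4 and 34.9 in small buds and 8073, 5299, 4837 and 6288 in middle buds. The small-bud arrays were near the dim end of the scale and none approached the middle-bud arrays (5.04, SE 0.31, adjusted p = 3e-10). In large buds it reached 13728 ± 1857 (SD, n = 2), a further difference of 1.15 that did not pass (SE 0.31, adjusted p = 0.074). The LEA and desiccation group was drawn up after values were seen. Of its 10 tested members 3 rose and none fell, against 1.1% of all probe sets called higher, with a median of 0.49.

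The other 2 were AT1G47980 and AT2G03850. AT1G47980, a desiccation-related gene, had 263, 344, 158.3 and 276 against 5067, 3324, 4393 and 4453 (3.58, SE 0.49, adjusted p = 6.6e-05), without overlap. AT2G03850, an LEA family gene, rose by 2.03 (SE 0.38, adjusted p = 0.0026), and its call was lost without small replicate 2 (adjusted p = 0.122). AT3G02480 and AT5G53820, which are LEA-type genes, had changes of 0.22 (SE 0.40) and 0.61 (SE 0.40) here and stood at 57.6 and 111.6 in middle buds. In large buds they stood at 1390 and 1735.

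Single members of several protease families rose, while the family medians lay near 0. The A1 aspartyl proteases were grouped after values were seen. Of 19 tested 2 rose, against 1.1% of all probe sets called higher, with a family median of 0.08. AT1G25510 had 107.9, 108.1, 39.2 and 86 in small and 2605, 1777, 2420 and 2476 in middle buds (3.62, SE 0.38, adjusted p = 1.1e-06) and stood at 85.4 ± 15.5 (SD, n = 2) in large buds, so that of the 3 size classes middle buds alone were high. AT2G03200 had 462, 130.1, 593 and 188.3 against 3093, 1505, 4068 and 4703 (2.94, SE 0.40, adjusted p = 5.5e-05), with replicate 2 above replicate 1 in middle buds and no overlap of the classes.

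Among 13 papain-type cysteine proteases, also grouped after values were seen, 1 rose and 1 fell, against 1.1% and 0.45% of all probe sets. AT1G06260 had 372, 402, 175.2 and 353 in small and 2218, 1994, 2465 and 2618 in middle buds (2.50, SE 0.34, adjusted p = 5.5e-05) and 3978 ± 591 (SD, n = 2) in large buds. AT4G01610, of the cathepsin B type, fell from 3012 ± 512 to 1332 ± 219 (SD, n = 2; -1.09, SE 0.20, adjusted p = 0.0019). Its call was lost without small replicate 1 (adjusted p = 0.059) and without middle replicate 2 (adjusted p = 0.061). Of all probe sets 1.1% were called higher, beside 1 of 10 subtilases and 1 of 21 serine carboxypeptidase-like genes tested. The subtilase AT1G20150 rose from 578 ± 33.8 to 2322 ± 385 (1.81, SE 0.30, adjusted p = 0.00070). The serine carboxypeptidase-like gene scpl29 rose by 1.18 (1 of 21 tested; SE 0.21, adjusted p = 0.0013), and lost its call without small replicate 2 (0.92, adjusted p = 0.068).

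Cell wall families showed the same pattern of single members. Of 19 tested TBL genes, a family that acetylates wall polysaccharides, 2 rose, against 1.1% of all probe sets called higher. TBL39 had 565, 242.5, 671 and 713 in small and 1699, 1552, 3345 and 3257 in middle buds, with middle replicate 2 above middle replicate 1 and all middle-bud arrays above all small-bud ones (1.95, SE 0.30, adjusted p = 0.00023). In large buds TBL39 was at 567 ± 30.1 (SD, n = 2), a change of -1.85 (adjusted p = 0.00069). TBL41 rose by 2.40 (SE 0.50, adjusted p = 0.0072), a call lost without small replicate 1 (adjusted p = 0.103) and without middle replicate 2 (adjusted p = 0.115).

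GDSL lipases, a family with members in cutin and pollen coat metabolism, were grouped after values were seen. They gave 2 rises among 41 tested, against 1.1% of all probe sets called higher. AT1G20120 rose by 1.65 (SE 0.30, adjusted p = 0.0021) and AT3G53100 by 1.37 (SE 0.28, adjusted p = 0.0061). The first lost its call without middle replicate 1 (adjusted p = 0.054), and the second without small replicate 2 (adjusted p = 0.129) and without middle replicate 2 (adjusted p = 0.132). No member passed among 13 expansins, 6 xyloglucan endotransglucosylases, 13 endoglucanases of family GH9 and 6 tubulins tested, against 1.55% of all probe sets. The median changes of these families were -0.28, 0.01, -0.01 and -0.25 in that order.

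A further 8 genes that rose, from CRT1b to AT5G64870, were chosen after their values were seen and stand for no group. CRT1b, a calreticulin and calcium-binding chaperone of the endoplasmic reticulum, had 6299, 9143, 6957 and 6192 in small and 27109, 20753, 15538 and 17455 in middle buds (1.47, SE 0.22, adjusted p = 0.00021). It was bright in both classes, which did not overlap. AT1G42470, of the NPC1 sterol transporter type, rose from 839 ± 14.2 to 3098 ± 915 (1.77, SE 0.27, adjusted p = 0.00023). AT4G36640, of the Sec14 lipid transfer type, rose from 742 ± 44.9 to 2856 ± 497 (SD, n = 2; 1.78, SE 0.27, adjusted p = 0.00023).

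AT5G58784, a cis-prenyltransferase, rose from 143.6 ± 21.4 to 1687 ± 149 (2.81, SE 0.34, adjusted p = 1e-05). AT5G15950, an S-adenosylmethionine decarboxylase of polyamine synthesis, had 66.8, 505, 972 and 789 in small and 2679, 2376, 3376 and 2143 in middle buds (2.24, SE 0.31, adjusted p = 6.8e-05). Its small-bud arrays were widely spread, from well under to above the array median, but all lay below the middle-bud arrays. AT2G41040, a methyltransferase, rose by 2.87 (SE 0.38, adjusted p = 3.4e-05), AT5G16960, a zinc-binding dehydrogenase, by 2.73 (SE 0.34, adjusted p = 1.3e-05), and AT5G64870, a flotillin of membrane microdomains, by 2.27 (SE 0.38, adjusted p = 0.00060).

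Of 13 tested SWEET genes, a family of sugar exporters, 1 rose, against 1.1% of all probe sets. SWEET3 had 1568, 1333, 1131 and 1114 in small and 4251, 2800.4, 2962 and 2908 in middle buds (1.25, SE 0.31, adjusted p = 0.039). The classes did not overlap, yet the call was lost without any 1 of the 4 replicates, with adjusted p of 0.085 and 0.294 without small replicate 1 or 2 and of 0.187 and 0.115 without middle replicate 1 or 2. The fructokinase-type gene AT5G51830, chosen after its values were seen, rose from 568 ± 50.7 to 1961 ± 82.5 and was at 857 ± 139 in large buds (SD, n = 2; 1.58, SE 0.20, adjusted p = 2.8e-05). The other fructokinase-type gene AT4G10260 stood at 79.3, 133.7 and 1367 in small, middle and large buds, with a change of 0.29 (SE 0.43, adjusted p = 0.904) here. RR16, a response regulator of cytokinin signalling, had 152.1, 331, 294 and 341 against 1090.4, 946, 1041 and 904 (1.53, SE 0.28, adjusted p = 0.0019). JMT, which methylates jasmonate, had a change of 0.85 (SE 0.35, adjusted p = 0.354).

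Falls were smaller, and the largest named one concerned ethylene. AT1G12010, a 1-aminocyclopropane-1-carboxylate oxidase that makes ethylene in the last step of its synthesis, had 4405, 7459, 5077 and 4969 in small and 827, 641, 793 and 835 in middle buds. All small-bud arrays were several times brighter than any middle-bud array, and the change was -2.63 (SE 0.20, adjusted p = 1.4e-08). In large buds it was at 1096 ± 123 (SD, n = 2), so the lower level was kept. AT4G28703, a cupin family gene, had 576, 761, 669 and 808 against 111.2, 45.6, 198.9 and 48.3 (-1.98, SE 0.39, adjusted p = 0.0042). Its call was lost without small replicate 2 (adjusted p = 0.058) and without middle replicate 1 (adjusted p = 0.052), although the classes did not overlap.

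AT1G56220, of the dormancy and auxin-associated family, whose members rise in resting buds and starved tissue, fell as well. It had 3057, 3486, 2786 and 2789 in small and 1265, 772, 251 and 950.2 in middle buds, where the first hybridisation of replicate 2 was lowest (-1.92, SE 0.31, adjusted p = 0.00043). The other 2 tested genes of this type had negative changes that did not pass, AT3G15450 with -0.74 (SE 0.20, adjusted p = 0.062) and AT4G27450 with -0.60 (SE 0.29, adjusted p = 0.462). This list was drawn up with earlier results of these samples known.

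PLATZ factors, a plant family of zinc-binding DNA-binding proteins that was grouped after values were seen, gave 3 falls and no rise among 6 tested, against 0.45% of all probe sets called lower. AT1G21000 had 2404, 2021, 1392 and 2304 in small and 746, 783, 347 and 416 in middle buds, without overlap (-1.68, SE 0.27, adjusted p = 0.00045). AT4G17900 fell by 1.15 (log2 change -1.15, SE 0.28, adjusted p = 0.035) and AT1G76590 had -0.92 (SE 0.24, adjusted p = 0.045). AT4G17900 lost its call without each of the 4 replicates, with adjusted p of 0.079 and 0.277 without small replicate 1 or 2 and of 0.11 and 0.19 without middle replicate 1 or 2. AT1G76590 lost it without small replicate 1 (adjusted p = 0.154), small replicate 2 (adjusted p = 0.231) and middle replicate 2 (-0.58, adjusted p = 0.52). The other 3 tested PLATZ genes had changes of -0.10, 0.19 and 0.36.

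Of the remaining largest falls, AT5G57785 was the best measured, with 1402, 1477, 1440 and 1767 in small and 478, 240.4, 340.2 and 567 in middle buds (-1.69, SE 0.27, adjusted p = 0.00032). SIS, a salt-induced serine-rich protein gene, fell by 1.42 on the log2 scale (SE 0.29, adjusted p = 0.0057), and AQI had -1.75 (SE 0.43, adjusted p = 0.032). KIWI, a transcriptional coactivator, had 669, 647, 941 and 492 against 163.9, 503, 68.7 and 93.2, with 1 middle-bud array inside the small-bud range (-1.47, SE 0.35, adjusted p = 0.022). AT4G02920 had -1.52 (SE 0.35, adjusted p = 0.020) and returned to 493 ± 36.3 (SD, n = 2) in large buds. FU, a protein kinase of the FUSED type, had -1.39 at 1 of its 2 probe sets (SE 0.35, adjusted p = 0.039) and -0.03 at the other (adjusted p = 1). TET8, a tetraspanin found on plant extracellular vesicles, fell from 3258 ± 164 to 1614 ± 98.5 (-0.97, SE 0.20, adjusted p = 0.0053). It was the 1 fall among 12 tetraspanins tested, against 0.45% of all probe sets called lower.

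AT5G57785 kept its call without each replicate in turn, and 6 other genes did not. SIS lost its call without small replicate 2 (adjusted p = 0.080) or middle replicate 1 (adjusted p = 0.053), and TET8 without small replicate 1 (adjusted p = 0.067) or middle replicate 2 (adjusted p = 0.081). AQI lost it without small replicate 2 (adjusted p = 0.42), middle replicate 1 (adjusted p = 0.163) or middle replicate 2 (adjusted p = 0.095). KIWI and FU lost it without either small replicate (adjusted p = 0.111 and 0.144 for KIWI, 0.124 and 0.239 for FU) and without middle replicate 2, where KIWI had -0.93 (adjusted p = 0.414) and FU had -0.67 (adjusted p = 0.606). AT4G02920 lost it without any 1 of the 4, with adjusted p from 0.054 to 0.181.

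The lists of meiocyte, pollen and pistil markers were short, and with 1.55% of all probe sets called, no call among so few members says little about them. None of 5 tested meiosis genes passed, with a median of 0.18. RCK, a helicase of meiotic crossover formation, had the largest of these changes at 0.88 (SE 0.38, adjusted p = 0.378). None of 9 genes of microspores and maturing pollen passed either (median -0.15). ACT12, a pollen actin, stood at 238 in small, 127.5 in middle and 590.4 in large buds, and the pollen tetraspanin TET11 at 461, 669 and 1389. The 3 tested pollen coat lipases had changes from -0.31 to 0.29, and the 3 pistil and ovule markers INO, NGA1 and SPT from -0.33 to -0.10. Of the floral identity genes on the list the annotation named UFO alone, and it was too dim to be tested. Many defining markers of the tapetum and of meiocytes were not named by the annotation, so the labelled tissue could be checked against few genes.

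Large housekeeping groups shifted little. None of 20 nuclear photosynthesis genes (median -0.04), 67 plastid-encoded genes (median -0.14), 16 mitochondrion-encoded probe sets (median -0.06), 66 cytosolic ribosomal protein genes (median -0.15) or 10 histones (median -0.29) was called, against 1.55% of all probe sets. Among the plastid-encoded genes 48 of 67 had a negative change, and among the ribosomal protein genes 50 of 66, against 7385 of the 13999 tested. Of the 40 lists examined, 22 had no call.

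**Figure D2:**
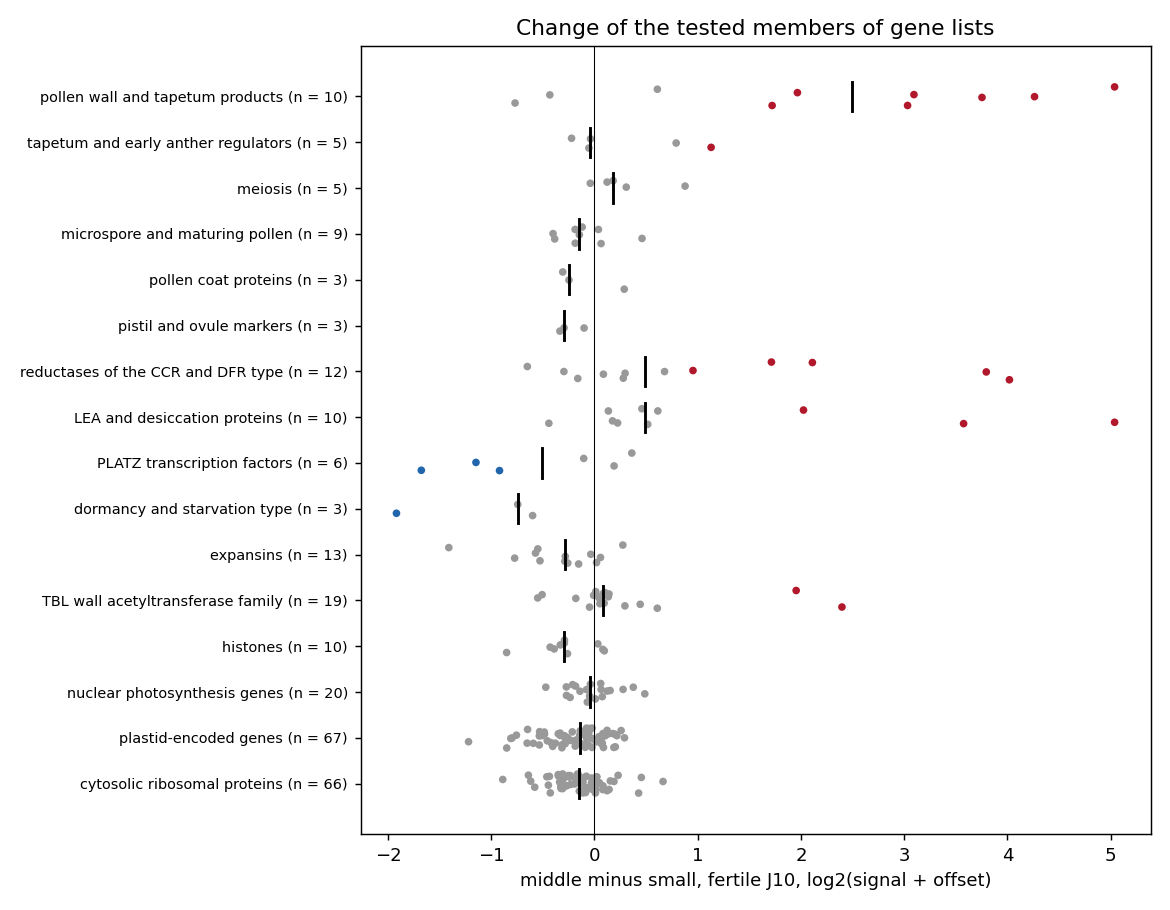
Change from small to middle fertile J10 buds on the log2(signal + offset) scale for the tested members of 16 gene lists, with n the number tested. Each point is a probe set, red where it was called higher, blue where it was called lower and grey otherwise, vertical position within a row is random, and black bars are medians. The pollen wall and tapetum products have a median of 2.50 and the ribosomal protein genes of -0.15.

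Fertile buds of the second line, J03, passed through the same size classes, and their mean signals came from other arrays than those of J10. The filter and the pooled spread between replicates came from all 12 groups, however, so a probe set had the same SE in both lines. Calls shared by the 2 lines are therefore not independent of each other. The signs and sizes of the changes do not use this SE. There 246 probe sets were called higher (1.76%) and 180 lower (1.29%). Of the 154 rises of J10, 106 were also called higher in J03, which is 68.8% of the J10 rises and 43.1% of the J03 rises. Of the 63 falls, 37 were also called lower there, 58.7% of the J10 falls and 20.6% of the J03 falls. The sign was the same in J03 for 151 of the 154 and 61 of the 63, against 49.5% and 50.5% of all tested probe sets with that sign. No probe set was called in opposite directions. Across all tested probe sets the changes of the 2 lines correlated at r = 0.467, as a description over probe sets, which are not independent.

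In J03 AT2G03740 rose by 5.81, SHT by 5.10 and the aspartyl protease AT1G25510 by 2.27. A9 rose by 1.44 in J03 (adjusted p = 0.0015), where its small-bud signal was already 1718 ± 58.4, against 727 ± 151 in J10 (SD, n = 2). AT3G23770 had 7064 ± 1564 in small and 29870 ± 7843 in middle J03 buds (SD, n = 2). Its change in J03 was 2.02 (SE 0.78, adjusted p = 0.217), and the difference between the lines was 5.26 (SE 1.11, adjusted p = 0.224). No probe set (0%) passed the limma test of the line difference in stage change. Its unadjusted p was under 0.05 at 769 probe sets, where chance alone gives 700. Without middle replicate 1 and without middle replicate 2 there was 1 call each. The median SE of that difference was 0.46, against 0.32 for the stage change within fertile J10, so a missing call does not show equal change.

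**Figure D3:**
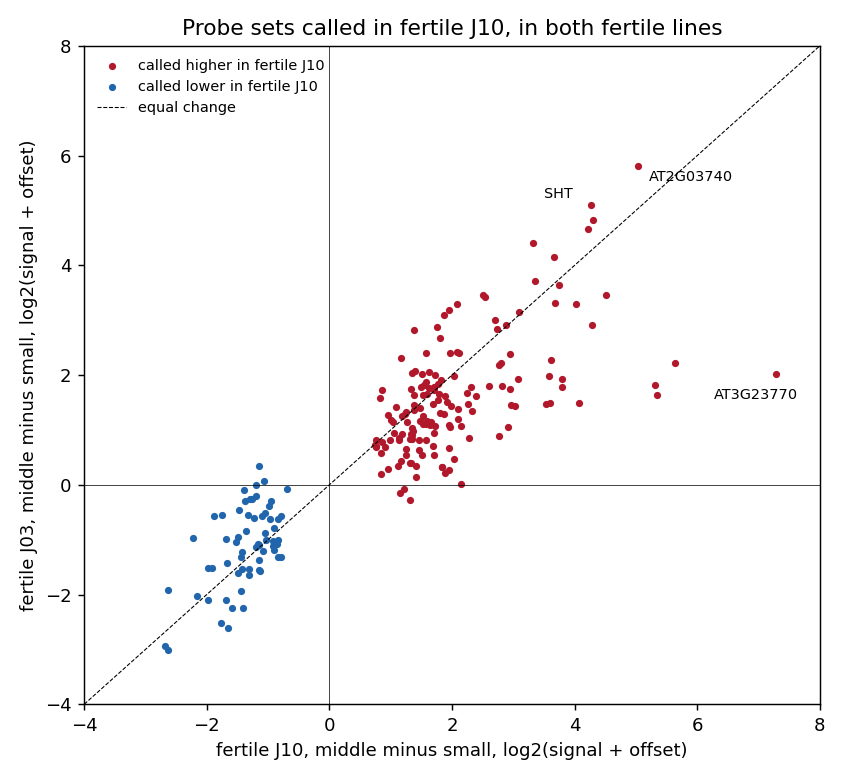
Change from small to middle buds on the log2(signal + offset) scale of the 217 probe sets called in fertile J10, in fertile J10 (horizontal) and in fertile J03 (vertical). Each point is 1 probe set, red for the 154 rises and blue for the 63 falls of J10, and the dashed line marks equal change. Nearly all points lie in the quadrants of equal sign, and AT3G23770 lies far below the line.

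Sterile J10 buds of the same sizes gave fewer calls, 51 higher (0.364%) and 26 lower (0.186%). Unadjusted limma p-values under 0.05 were found for 1335 probe sets in sterile and 1471 in fertile J10 buds, where chance alone gives 700. Fewer calls therefore do not by themselves show a weaker stage change in sterile buds. Of the 154 rises of fertile J10 buds, 38 were also called in sterile J10 buds, 24.7% of the fertile and 74.5% of the sterile rises. Of the 63 falls, 7 were also called there, 11.1% of the fertile and 26.9% of the sterile falls. The sign agreed for 145 of the 154 and 58 of the 63, against 47.4% and 52.6% of all tested probe sets. The change was smaller in size in sterile buds for 147 and 60 of them. A smaller size elsewhere comes in part from having chosen these probe sets for their size in fertile buds, so these counts are a description. Their median changes in sterile buds were 0.78 and -0.60.

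The difference itself, sterile minus fertile, passed for 9 probe sets (0.0643%), of which 8 (0.0571%) had a lower stage change in sterile buds. Unadjusted p-values for it were under 0.05 at 870 probe sets. With 1 gene in the annotation were AT2G03740, SHT and AT4G29250. AT2G03740 rose by 5.04 in fertile buds and had a change of 0.80 in sterile ones, from 81.8 ± 12.8 to 258 ± 90.2 (SD, n = 2), a difference of -4.24 (SE 0.44, adjusted p = 1.4e-05). SHT had 296 ± 162 and 860 ± 315 in sterile buds (SD, n = 2; change 1.33), a difference of -2.93 (SE 0.51, adjusted p = 0.023). AT4G29250 had 767 ± 47.9 and 1013 ± 246 (SD, n = 2; change 0.35), a difference of -2.74 (SE 0.51, adjusted p = 0.037). Both smaller differences lost their call without 3 of the 4 fertile replicates. For SHT the adjusted p was 0.11 without small replicate 1 and 0.13 and 0.061 without middle replicates 1 and 2, and for AT4G29250 it was 0.21 without small replicate 2 and 0.133 and 0.117 without middle replicates 1 and 2. The count of 9 became 1 without either middle replicate and 3 without small replicate 1.

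For other genes the difference between sterile and fertile buds did not pass. AT3G23770 rose by 5.85 in sterile buds (adjusted p = 0.00026), against 7.28 in fertile ones, a difference of -1.43 (SE 1.11, adjusted p = 0.915). A9 rose in both, by 2.52 (adjusted p = 1.4e-05) and 3.03, and AMS had 1.02 (adjusted p = 0.099) and 1.13. AT1G06260 had a change of 0.22 in sterile buds against its rise of 2.50 (difference -2.28, SE 0.48, adjusted p = 0.091), and AT4G00040 had 1.15 against 3.75 (difference -2.61, SE 0.55, adjusted p = 0.091). AT1G12010 had a change of -1.22 in sterile buds (adjusted p = 0.0023) against -2.63 in fertile ones (difference 1.41, SE 0.28, adjusted p = 0.061). AT1G56220 had -0.06 in sterile buds against -1.92 in fertile ones (difference 1.86, SE 0.44, adjusted p = 0.149). Its signal in small sterile buds was 643 ± 86.0 (SD, n = 2). SWEET3 rose by 2.00 in sterile buds (adjusted p = 0.0015) against 1.25 in fertile ones, a difference of 0.75 (SE 0.45, adjusted p = 0.86).

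**Figure D4:**
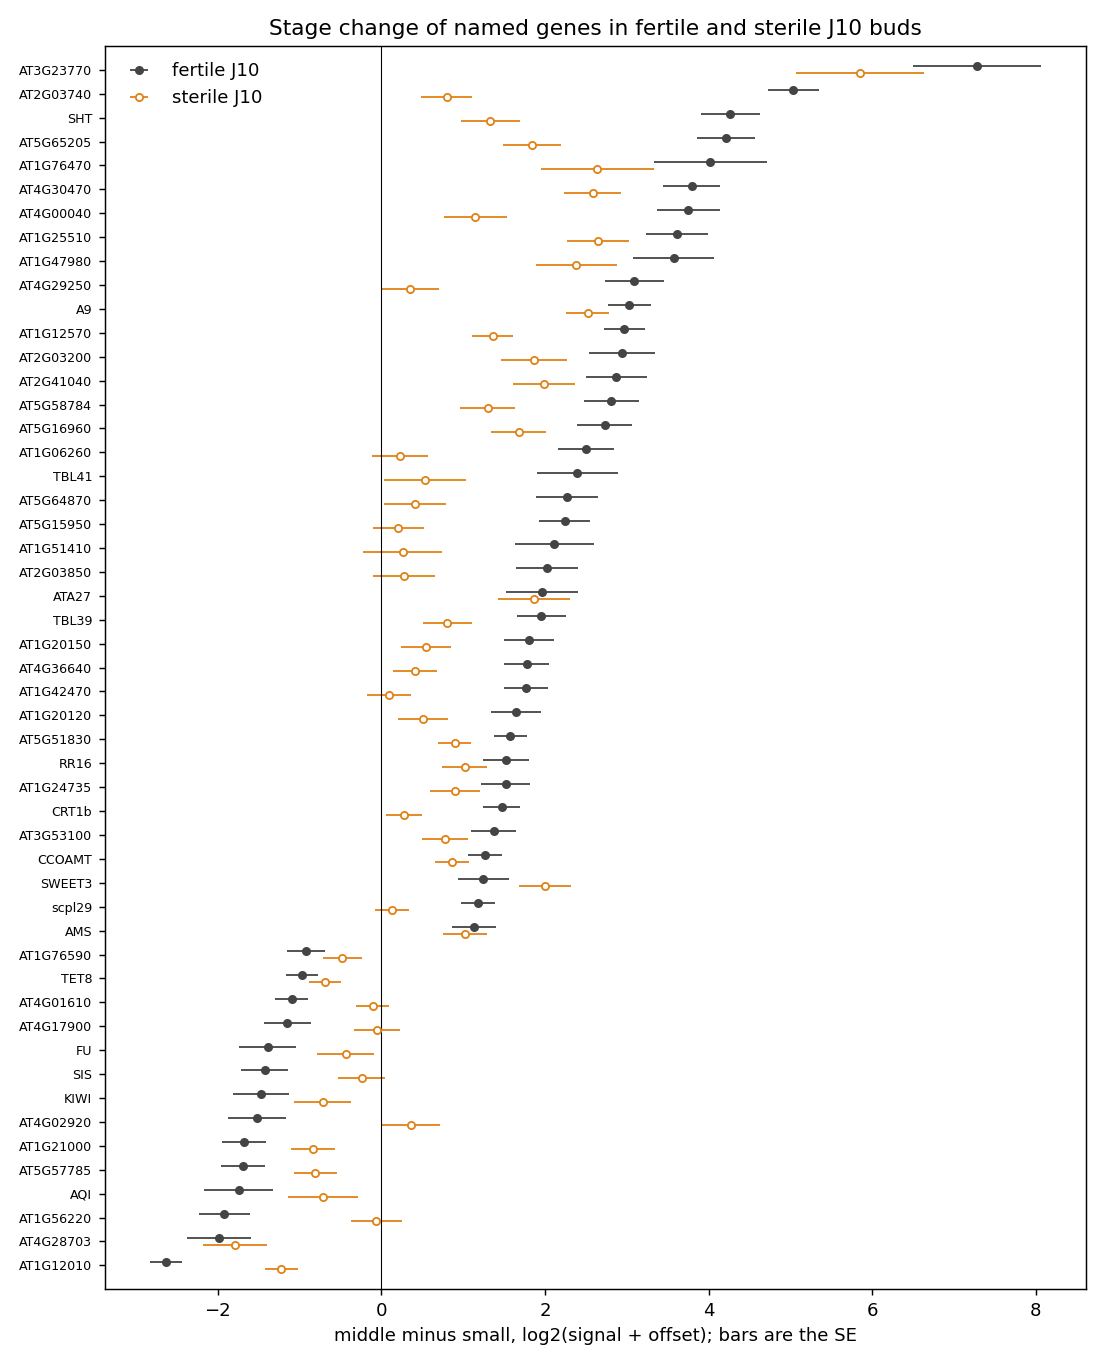
Change from small to middle buds on the log2(signal + offset) scale of the named genes called in fertile J10, in fertile (filled) and sterile (open) J10 buds, with bars of 1 SE. Genes are ordered by their change in fertile buds. AT2G03740, SHT and AT4G29250 are the named genes whose difference between fertile and sterile buds was called.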

How the data were processed

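RNA of flower buds was measured on 48 arrays in 12 groups. The authors deposited signal intensities, which the submitters' processing notes attribute to MAS5, and each array had a 2% trimmed mean of 500.0. The annotation gave 1 gene for 13513 probe sets, several for 503 and none for 8730. Arrays with the same number (biol_rep and tech_rep) were averaged as 1 replicate, a reading the titles do not state. The p-values then rest on the spread between the 2 replicates of unknown plants in each group, pooled over all 12 groups. The number of arrays limits the precision. A probe set was tested where, in any 1 group, both replicates reached the array median (50th percentile). The limma model (version 3.58.1, R 4.3.3) took log2(intensity + 113.0) of all 12 groups (24 columns, 12 residual degrees of freedom, intensity trend), with Benjamini-Hochberg adjustment within each comparison. The test was tested on simulated data with noise drawn independently for each probe set and replicate. Replicates that deviate together were not simulated. The titles do not say whether equal replicate numbers pair samples across groups, and no block entered the main fit. The 40 lists (12 written first, 21 from the annotation's symbols, 7 after values were seen) and the members were chosen with earlier results of these data known. Lists defined by gene titles could not be applied, since the annotation held none. Named genes were the 10 largest rises and falls with 1 gene and replicates apart, up to 3 called members of each list, 6 anther genes, and the 3 largest differences each way of each stage-change test. The 10 genes added outside this rule, and UPEX1, AT2G23910, AT5G14700 and list members given as not passing, are named for their values. Alternatives covered the offset, filter, scaling, hybridisations, samples in the fit, variance trend, 3' to 5' ratio, replicate block and replicates left out. Figures used matplotlib 3.10.9 in Python 3.11.15. No sequence is shown, since none was analysed here.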

Additional observations from a re-analysis of the deposited data

Results flagged for a closer look

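For 3 genes the stage change of sterile J10 buds differed from that of fertile ones by a test of the difference itself. These were AT2G03740 (-4.24, sterile 0.80 against fertile 5.04), SHT (-2.93, 1.33 against 4.26) and AT4G29250 (-2.74, 0.35 against 3.09). AT2G03740 kept this call under every alternative. SHT and AT4G29250 lost it with an offset of 16, first hybridisations only, the compared groups only and no intensity trend. AT4G29250 also lost it with no filter. For 6 genes 1 array stood apart from the other 3 of its size class. This was looked for in 110 groups of 4 arrays, and chance sets such an array apart in about 1 of 20 groups. The 6 found are thus near the number that chance gives. In small buds AT4G00040 had 580.0 on 1 array against 118.3 to 142.9, scpl29 had 3615.4 against 1794.3 to 2021.4, and AT4G36640 had 630.4 against 769.2 to 790.0. In middle buds AT4G02920 had 141.9 against 65.0 to 69.9, SWEET3 had 4250.5 against 2800.4 to 2961.9, and AT4G01610 had 1769.9 against 1154.6 to 1203.6.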

How the results depend on the processing

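All 51 called genes that the rule or the later choice named kept their sign under every alternative that tested them, and 30 kept their call in each, 26 of 37 rises and 4 of 14 falls. The 217 calls numbered 134 (29 falls) with first hybridisations only, 338 (114 falls) when every array entered with its replicate as random block, 457 (267 rises, 190 falls) with tech_rep numbers crossed, 130 (24 falls) with the compared groups only and 143 (27 falls) with the fertile J10 groups only. Leaving out 1 of the 4 replicates gave 140 to 208 calls, with 115 to 138 rises and 24 to 93 falls. Of the 217, 89 (78 rises, 11 falls) were called without each replicate in turn. The replicate block gave 242 calls with all 217 among them, and a block within each line 295 (97 falls). Same-numbered small and middle replicates deviated together (r = 0.292). Over the 15 pairs of J10 groups this r ran from 0.094 to 0.292, and within J03 from -0.044 to 0.079. With 2 numbers per group, this is a hint from the data and not part of the labelled design. Where alternatives moved a count, the cause was not tested, except that fewer samples entered some fits. The 9 probe sets whose stage change differed between sterile and fertile buds numbered 2 with an offset of 16, 5 with no filter, 3 with first hybridisations, 32 with the random block, 68 crossed, 2 with the compared groups, 1 without the intensity trend, 14 with the 3' to 5' covariate, 25 with the replicate block within each line, and 1 to 12 without a replicate. The 0 calls of the line difference became 11 with the random block, 36 crossed, 8 with the compared groups, 1 with the 3' to 5' covariate, and 0 to 1 without a replicate.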
